A study of Homo sapiens with 7 samples.

Results

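The genes described here are 10 adaptors, kinases and ubiquitin-editing proteins of the NF-kB pathway, measured in 3 libraries given PBS and 4 libraries given PTH (parathyroid hormone). They are Tnfaip3, Tnip1, Tnip2, Tnip3, Ripk2, Birc3, Traf1, Traf2, Traf6 and Ikbkb, 10 of the 22062 rows in both deposited tables. They were chosen by gene symbol for their place in the pathway, with results of PTH against PBS in these libraries already known, so their differences describe the libraries and are no independent evidence. The rule would take the row with the highest mean where a symbol repeats, and each of the 10 symbols has 1 row. The labels call all 7 libraries LX2, an immortalised human hepatic stellate cell line, with PBS or PTH as the treatment. Neither dose nor duration is stated, and the libraries are not said to be separate cultures. Every p-value below therefore reflects the scatter of these libraries alone, part or all of which could be technical. The gene identifiers belong to rat, the labels name a human line and the design note mentions mice, so the species was not settled here and genes carry their rat symbols.

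NF-kB is a family of transcription factors held in the cytoplasm by IkB proteins. Receptors for TNF, interleukin-1 and bacterial products recruit adaptors that build chains of ubiquitin, the chains gather the IkB kinase, and IkB is then degraded. Ubiquitin editors take the chains apart or replace them and so limit the signal, and several of their genes are themselves NF-kB targets. In stellate cells, which lay down scar matrix in the injured liver, the pathway is known for driving chemokine and survival genes.

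Tnfaip3, Tnip3, Ripk2 and Birc3 were lower with PTH, and Tnip1, Tnip2, Traf2, Traf6 and Ikbkb did not pass the test. The 4 genes fell by 1.44-fold (Birc3) to 3.81-fold (Tnip3) in mean FPKM (sequenced fragments scaled by transcript length and library size). The largest fall of the 4 was that of Tnip3, an inhibitor that binds the ubiquitin editor A20, and Tnfaip3, which encodes A20 itself, fell 1.86-fold. Traf1 lay below all PBS values in all 4 PTH libraries but did not pass, with a limma adjusted p of 0.0611. Of the 10 genes 4 were called lower and 0 higher, at an adjusted p under 0.05 in a limma fit over 10667 genes, and 5 had an unadjusted limma p under 0.05. In the same fit 7.96% of all genes were called lower and 3.45% higher. In 5 of the 10 genes all PTH values lay below all PBS values, and in 0 all lay above, while over all tested genes 20.8% lay wholly below and 12.7% wholly above. The median log2 fold change of the 10 genes was -0.28, against -0.04 over all tested genes.

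Promoters are shown for Tnfaip3, Birc3 and Tnip3, which fell, and for Tnip1, which did not pass, because the binding motif of NF-kB can be read in them. RefSeq promoters of the human build GRCh38.p14 were searched on both strands, from 250 bases before to 50 after each listed start, for the kappaB consensus motif. The count for the 10 genes covers 13 entries, which belong to 8 of them. No entry for RIPK2 or IKBKB was taken into that count, so whether their promoters hold the motif was not examined. Of the 13 entries 5 hold the motif, in TNFAIP3, BIRC3, TNIP1 and TNIP3, and 11.3% of all 35116 entries do. The 250 bases before the start are given 5′ to 3′ on the gene's strand, with the motif in capitals, also where it reads on the other strand. They are human sequences, and the tables use rat identifiers.
TNFAIP3, plus strand, chr6:137867009-137867258: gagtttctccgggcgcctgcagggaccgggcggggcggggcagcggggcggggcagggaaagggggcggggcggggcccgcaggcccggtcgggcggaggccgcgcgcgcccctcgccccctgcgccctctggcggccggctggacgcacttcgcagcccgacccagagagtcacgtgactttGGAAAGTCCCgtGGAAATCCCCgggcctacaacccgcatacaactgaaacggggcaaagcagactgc
BIRC3, plus strand, chr11:102317234-102317483: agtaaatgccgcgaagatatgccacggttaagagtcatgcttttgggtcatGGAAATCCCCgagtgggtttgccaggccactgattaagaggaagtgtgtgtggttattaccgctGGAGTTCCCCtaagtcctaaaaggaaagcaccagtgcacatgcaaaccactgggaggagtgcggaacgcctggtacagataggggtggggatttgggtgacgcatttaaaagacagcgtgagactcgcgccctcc
TNIP3, minus strand, chr4:121227484-121227733: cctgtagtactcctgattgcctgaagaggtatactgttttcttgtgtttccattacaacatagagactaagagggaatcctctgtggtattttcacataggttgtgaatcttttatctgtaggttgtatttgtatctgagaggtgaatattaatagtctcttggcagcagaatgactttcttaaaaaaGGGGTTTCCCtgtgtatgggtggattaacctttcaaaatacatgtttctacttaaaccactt
TNIP3, another start, minus strand, chr4:121164322-121164571: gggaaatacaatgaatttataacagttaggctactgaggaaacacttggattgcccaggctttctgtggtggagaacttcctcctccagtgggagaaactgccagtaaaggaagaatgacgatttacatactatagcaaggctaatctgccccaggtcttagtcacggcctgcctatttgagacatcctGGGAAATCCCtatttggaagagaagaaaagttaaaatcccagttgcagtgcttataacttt
TNIP1, minus strand, chr5:151081035-151081284: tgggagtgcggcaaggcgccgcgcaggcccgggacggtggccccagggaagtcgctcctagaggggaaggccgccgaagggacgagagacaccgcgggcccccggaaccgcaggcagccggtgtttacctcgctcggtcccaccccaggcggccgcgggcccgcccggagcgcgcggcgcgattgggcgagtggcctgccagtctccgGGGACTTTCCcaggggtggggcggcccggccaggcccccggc

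In TNFAIP3 the motif occurs at 2 positions, beginning 67 and 55 bases before the start and separated by a pair of bases, and in BIRC3 at 2 positions, 199 and 135 bases before it. A count of 2 or more positions was found in 2.04% of all entries. In both TNIP3 entries the same 10 bases match on both strands, 62 and 61 bases before the start. TNIP1 holds the motif 42 bases before 1 of its 2 starts. No match was found in the entries of TNIP2, TRAF2 and TRAF6, in the 3 of TRAF1, in the third of TNIP3 or in the other of TNIP1. The cAMP response element TGACGTCA, the motif of CREB factors, was found in 0 of the 13 entries and in 1.85% of all entries. Only these full letters were searched for, so shorter forms of the element were not counted. A match is a run of letters and was not tested for binding.

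Of A20 and its binding partners, Tnfaip3 and Tnip3 fell and Tnip1 and Tnip2 did not pass. Tnfaip3 encodes A20, which cuts ubiquitin chains and attaches others to end NF-kB signalling. Its FPKM was 26.8, 26.9 and 25.2 in PBS libraries 1 to 3 and 13.8, 13.4, 14.8 and 14.5 in PTH libraries 1 to 4. The groups did not overlap, and both were narrow, at 26.3 ± 0.927 (SD, n = 3) with PBS and 14.1 ± 0.637 (SD, n = 4) with PTH. The log2 fold change of FPKM + 1 was -0.85 ± 0.08 (SE), with a limma adjusted p of 0.00200. Fold changes on this scale understate those of low genes. Its call survived the removal of any 1 library, the highest limma adjusted p being 0.0253.

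Tnip3 encodes ABIN-3, 1 of 3 related proteins that bind A20 and ubiquitin chains. Its FPKM was 7.10, 7.62 and 6.34 with PBS and 1.26, 2.37, 1.78 and 1.97 with PTH. Each PTH value was under the lowest PBS value, with PTH library 1 lowest and PTH library 2 highest. The log2 fold change was -1.51 ± 0.17 (SE), with a limma adjusted p of 0.00516, and without PBS library 1 the call was lost (adjusted p of 0.0541). Both Tnip3 and the mitochondrial mRNAs were lowest in PTH library 1, followed by 3, 4 and 2. Those mRNAs took 0.867, 3.61, 2.40 and 3.03% of summed FPKM in PTH libraries 1 to 4, and their part in the Tnip3 values was not tested apart from the fit with that share as a covariate described below.

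The other ABIN genes overlapped between the groups. Tnip1 (ABIN-1), with the highest level of the 10 genes, had 63.5, 70.4 and 65.0 FPKM with PBS and 70.9, 57.0, 67.5 and 63.8 FPKM with PTH. Its log2 fold change was -0.04, with a 95% interval of -0.23 to 0.16 and a limma adjusted p of 0.796. Tnip2 (ABIN-2), which also stabilises a MAP kinase kinase kinase, had 11.6, 14.2 and 15.4 FPKM with PBS and 18.2, 15.9, 15.04 and 14.7 FPKM with PTH. Its interval ran from -0.07 to 0.48 (limma adjusted p of 0.259).

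The proportions among these genes differed between the groups. Within a library, Tnip3 stood at 11.2, 10.8 and 9.75% of the Tnip1 level with PBS and at 1.78, 4.15, 2.63 and 3.09% with PTH. Tnfaip3 stood at 42.2, 38.1 and 38.8% of Tnip1 with PBS and at 19.5, 23.4, 21.9 and 22.7% with PTH. Such ratios compare levels per length within 1 library and do not depend on a scaling factor of that library. The ratios were not corrected for GC content, described below, which was 42.2% for Tnip3, 50.05% for Tnfaip3 and 58.7% for Tnip1. They are given with no test, since they were chosen with the values known. The ratio of Tnfaip3 to Ripk2 overlapped between the groups, at 64.8 to 70.9% with PBS and 62.9 to 83.6% with PTH.

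**Figure D1:**
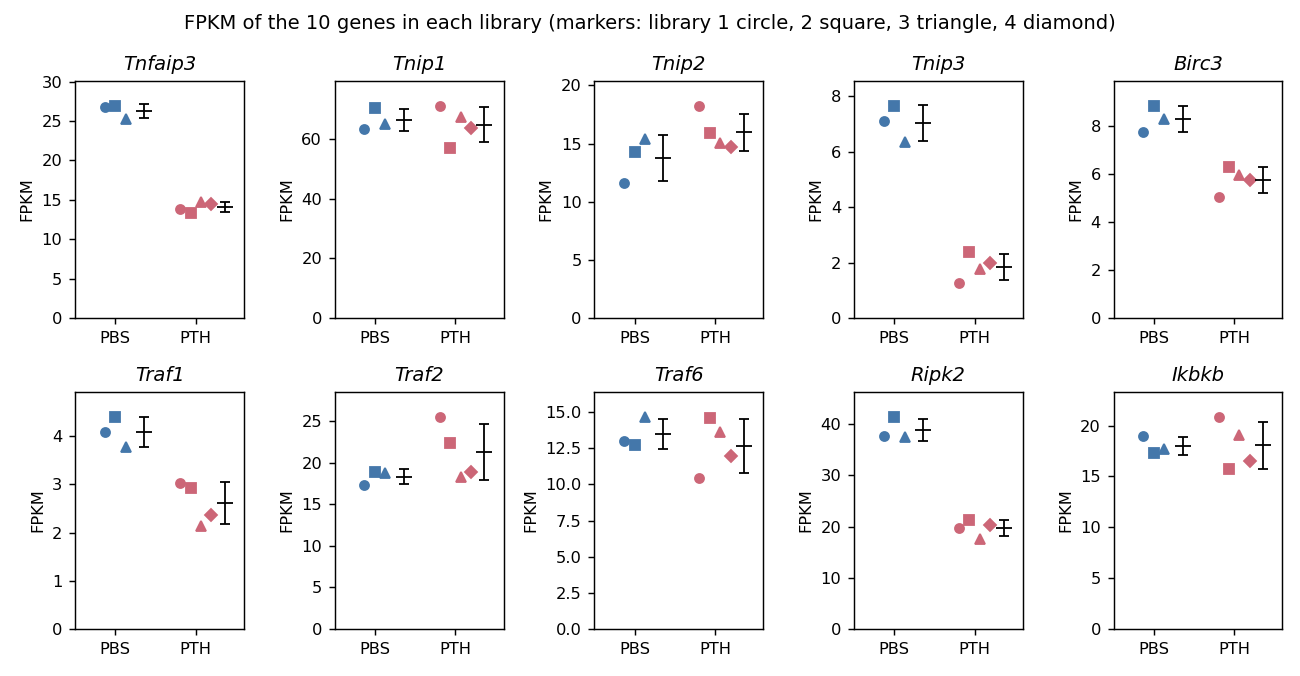
FPKM of each of the 10 genes (vertical axes start at 0) in the 3 PBS and 4 PTH libraries, 1 marker shape per library number; the bar beside each group is the mean ± SD. Tnfaip3, Tnip3, Ripk2, Birc3 and Traf1 do not overlap between the groups, and the other 5 do.

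**Figure D2:**
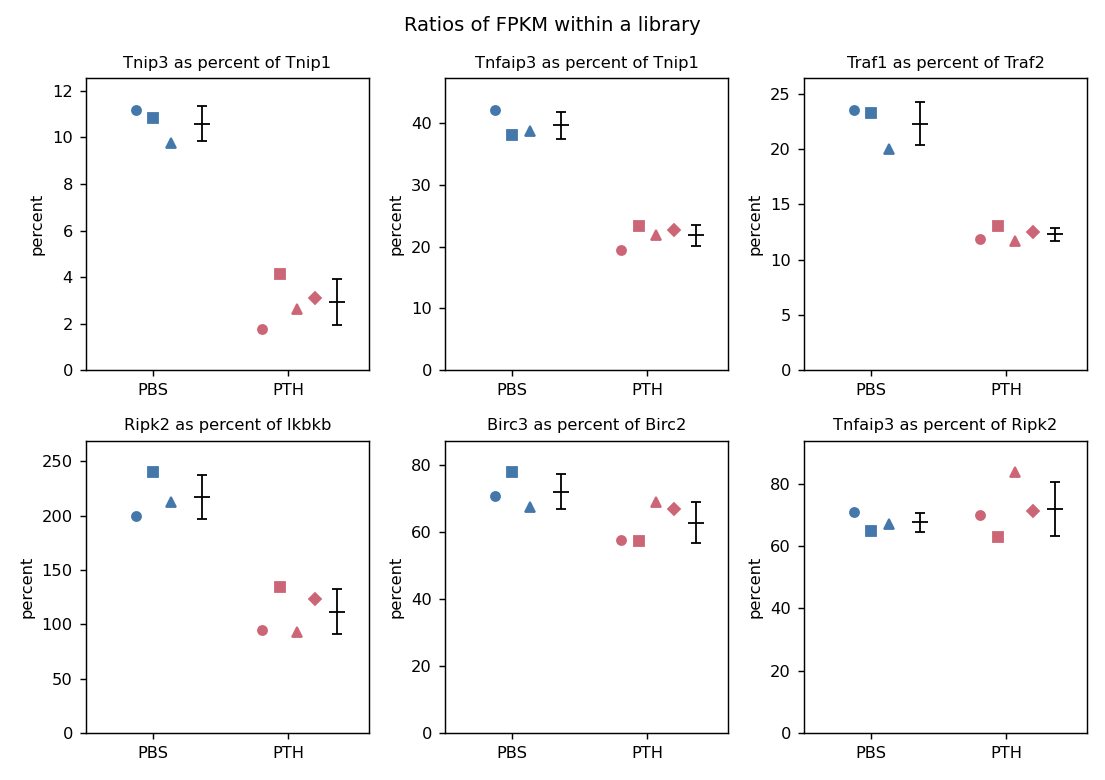
Ratios of FPKM within each library, in percent (axes start at 0), with mean ± SD beside each group. Every PTH value lies below every PBS value for Tnip3 to Tnip1, Tnfaip3 to Tnip1, Traf1 to Traf2 and Ripk2 to Ikbkb, and the groups overlap for Birc3 to Birc2 and Tnfaip3 to Ripk2.

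Ripk2 encodes the kinase that carries the signal of NOD1 and NOD2, sensors of bacterial cell wall fragments, to the ubiquitin machinery. Its FPKM was 37.8, 41.4 and 37.5 with PBS and 19.8, 21.2, 17.7 and 20.3 with PTH. The groups lay far apart relative to their spread, at 38.9 ± 2.17 (SD, n = 3) and 19.8 ± 1.52 (SD, n = 4). The log2 fold change was -0.95 ± 0.08 (SE), with a limma adjusted p of 0.00200 and at most 0.0223 when 1 library was left out. Nod1, the sensor upstream of it, rose from 8.41 ± 0.230 to 12.4 ± 1.04 FPKM (limma adjusted p of 0.0284), and Nod2 had a mean of 0.206 FPKM and was not tested. Nod1 lost its call when PTH library 3 or any PBS library was left out, with adjusted p of 0.0876 to 0.137.

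Ikbkb encodes the kinase subunit that phosphorylates IkB. It had 19.0, 17.3 and 17.7 FPKM with PBS and 20.8, 15.8, 19.0 and 16.5 FPKM with PTH, and the PTH values lay on both sides of the PBS values. Its log2 fold change was 0.00, with an interval of -0.25 to 0.25 (limma adjusted p of 0.992). Ripk2 stood at 199 to 240% of Ikbkb with PBS and at 92.7 to 135% with PTH.

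Among the ubiquitin ligases and TRAF adaptors, only Birc3 was called. Birc3 encodes cIAP2, a ubiquitin ligase that TNF receptor complexes recruit through TRAF2. Its FPKM was 7.76, 8.83 and 8.30 with PBS and 5.04, 6.30, 5.99 and 5.77 with PTH. The groups did not overlap, the log2 fold change was -0.46 ± 0.11 (SE) and the limma adjusted p was 0.0409. This call held in 2 of the 7 fits that left out a library, those lacking PTH library 1 or 2. Dropping PBS library 1, 2 or 3 gave limma adjusted p of 0.158, 0.138 and 0.113, and dropping PTH library 3 or 4 gave 0.107 and 0.0682. Its close paralog Birc2 averaged 11.5 ± 0.684 (SD, n = 3) FPKM with PBS and 9.26 ± 1.17 (SD, n = 4) FPKM with PTH, overlapped between groups and did not pass (limma adjusted p of 0.111). Birc3 stood at 67.6 to 77.9% of Birc2 with PBS and at 57.3 to 69.1% with PTH, so the ratio overlapped between the groups. How fragments shared by such paralogs were assigned is not given in the sources used here, so the Birc3 values are uncertain to that degree.

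Traf1, a TRAF protein without the RING domain of its relatives and known as an NF-kB target, had the lowest level of the 10 genes. Its FPKM was 4.08, 4.40 and 3.77 with PBS and 3.03, 2.92, 2.14 and 2.37 with PTH. The groups did not overlap, and the log2 difference was -0.50 ± 0.15 (SE). Its limma adjusted p passed the threshold when PTH library 1 (0.0493) or 2 (0.0401) was left out, without the variance trend (0.0484) and with sample weights (3.7e-05). Traf2, the adaptor of TNF receptors, had 17.3, 18.9 and 18.8 FPKM with PBS and 25.5, 22.4, 18.3 and 18.9 FPKM with PTH, and overlapped (limma adjusted p of 0.286). Traf6, the ligase of interleukin-1 and Toll-like receptors, had 13.0, 12.7 and 14.7 FPKM with PBS and 10.4, 14.6, 13.6 and 12.0 FPKM with PTH (limma adjusted p of 0.633). Their 95% intervals of the log2 fold change were -0.08 to 0.47 and -0.38 to 0.19. Traf1 stood at 23.6, 23.3 and 20.03% of Traf2 with PBS and at 11.9, 13.0, 11.7 and 12.5% with PTH.

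The order of mean levels, per length, differed between the groups. With PBS it ran from Tnip1 at 66.3 FPKM through Ripk2 at 38.9, Tnfaip3 at 26.3, Traf2 at 18.3, Ikbkb at 18.0, Tnip2 at 13.7 and Traf6 at 13.5 to Birc3 at 8.30, Tnip3 at 7.02 and Traf1 at 4.08 FPKM. Traf2 and Ikbkb overlapped over their libraries, as did Tnip2 and Traf6, and the other neighbours did not. With PTH, Tnip1 was still highest at 64.8 FPKM, and Traf2 at 21.3, Ripk2 at 19.8, Ikbkb at 18.0, Tnip2 at 15.9, Tnfaip3 at 14.1 and Traf6 at 12.7 FPKM followed, each overlapping the next. Birc3 at 5.78 FPKM stood apart, and Traf1 at 2.62 and Tnip3 at 1.84 FPKM overlapped.

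Across genes of these libraries the fold change rose with GC content, so the 10 genes were also compared after a correction for it, chosen after seeing the data. The Spearman correlation across 9433 genes between the log2 fold change and the GC percentage of human counterpart transcripts was 0.463 (genes are not independent replicates). The median log2 fold change was -0.26 in the fifth of genes with the lowest GC content and 0.14 in the fifth with the highest. Counterpart GC content was 38.5% for Birc3, 42.2% for Tnip3, 42.6% for Ripk2, 43.2% for Traf6, 50.05% for Tnfaip3, 52.4% for Ikbkb, 55.4% for Traf1, 58.7% for Tnip1, 61.3% for Traf2 and 62.0% for Tnip2. The median log2 fold change of the 10 genes was -0.15 after the correction, against -0.28 before it. After the correction 4 of the 10 genes were again called lower, against 5.52% of all genes, but they were not the same 4. Tnfaip3 (log2 fold change -0.80, limma adjusted p of 0.00223), Tnip3 (-1.30, 0.00282) and Ripk2 (-0.74, 0.00334) kept their calls. Birc3 lost its call, at -0.18 with an adjusted p of 0.237, and Traf1 gained one, at -0.52 with an adjusted p of 0.0400. Traf6 turned from -0.09 to 0.10 and did not pass in either fit.

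**Figure D3:**
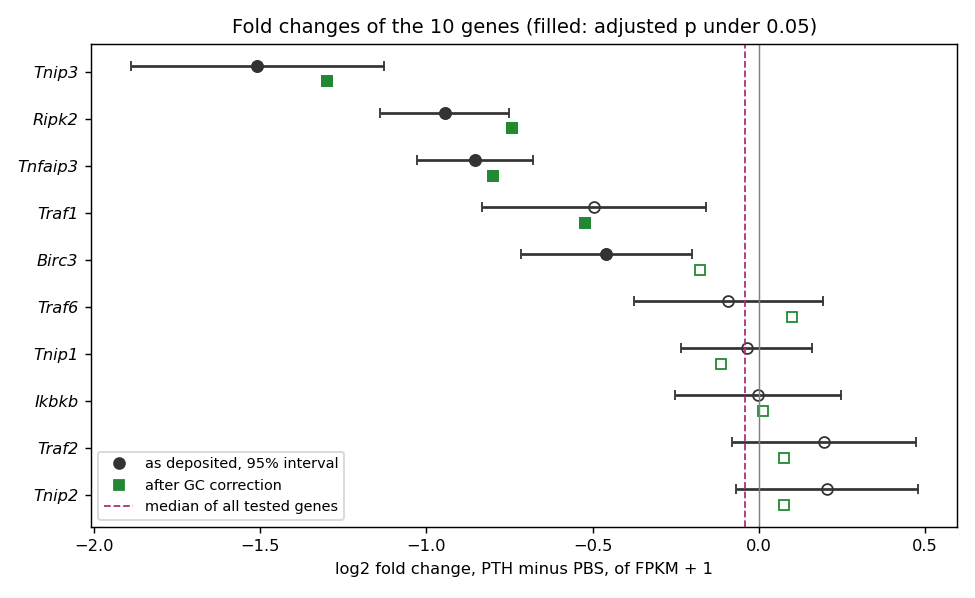
Log2 fold change (PTH minus PBS, of FPKM + 1) of the 10 genes as deposited (circles, with 95% intervals from limma) and after GC correction (squares); filled symbols have an adjusted p under 0.05, and the dashed line is the median of all tested genes. Tnip3, Ripk2 and Tnfaip3 are filled in both, Birc3 only as deposited and Traf1 only after correction.

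The authors' deposited table gives the same 4 genes an FDR under 0.05. In the authors' deposited table the log2 fold changes are -0.90 for Tnfaip3, -1.93 for Tnip3, -0.98 for Ripk2 and -0.52 for Birc3, with an FDR of 0.000651 for each of the first 3 and 0.0248 for Birc3. By the FDR that the authors' deposited table gives, 15.4% of the tested genes were lower and 7.87% higher, against 4 and 0 of the 10 genes. In the authors' deposited table Traf1 stands at -0.64 on the log2 scale, its FDR being 0.119. That table places Tnfaip3 on chr1:14402912-14412807, Tnip3 on chr4:96449350-96492871, Ripk2 on chr5:29838746-29870735 and Birc3 on chr8:6048968-6076598, in a rat build that it does not name.

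Other genes of the pathway were taken from 5 lists by role. Of 101 entries 97 matched a gene and 82 could be tested, of which 19 were lower and 3 higher, with a median log2 fold change of -0.13. Over all tested genes 7.96% were called lower and 3.45% higher, so the 3 higher calls are near the share over all genes. Lower calls numbered 20 when PTH library 1 was left out, 28 for PTH library 2, 7 for PTH library 4 and 1 to 4 for each of the others. Nfkbiz kept its call in 7 and Nfkbia in 6 of the 7 fits that left out a library and the other named genes kept theirs in 1 to 4. These lists were written with earlier results of these data known, and no list was tested as a set.

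Among 10 tested NF-kB subunits and IkB proteins 4 were lower and 0 higher, with a median of -0.44. Nfkbia, the main IkB inhibitor, fell from 136 ± 10.1 to 91.1 ± 3.45 FPKM (limma adjusted p of 0.00756), and Nfkbiz, an inducible nuclear IkB protein, fell from 32.2 ± 1.56 to 16.5 ± 1.80 FPKM (0.00373). Nfkb1, which encodes p105 and p50, fell by 0.52 and Bcl3, a nuclear IkB family member, fell by 0.72 on the log2 scale. All 4 kept their calls after GC correction. Rela, the main activating subunit, had a log2 fold change of -0.01 and did not pass (limma adjusted p of 0.947).

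Among 23 tested receptor-proximal adaptors and kinases 3 were lower and 1 higher. Tank, which binds TRAF proteins, fell from 14.2 ± 0.785 to 7.54 ± 1.32 FPKM (limma adjusted p of 0.0187). Irak3, an inhibitory kinase of Toll-like receptor signalling, fell from 54.9 ± 1.04 to 39.0 ± 3.62 FPKM (0.0241), and Bcl10, a CARD protein, fell by 0.43 on the log2 scale. Irak3, Tank and Nod1 kept their calls after GC correction, and Bcl10 did not (adjusted p of 0.1196). Ripk1, Traf3 and Myd88 did not pass, with limma adjusted p of 0.451, 0.899 and 0.853. Tradd, the adaptor that binds TNF receptor 1, had 23.8 ± 1.49 FPKM with PBS and 32.6 ± 7.36 FPKM with PTH, with groups that did not overlap and a limma adjusted p of 0.104. Tirap, which links Toll-like receptors to MyD88, overlapped between the groups (0.252).

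Among 26 tested ubiquitin ligases, deubiquitinases and ubiquitin readers 6 were lower and 0 higher. Zc3h12a, an RNase and deubiquitinase that limits inflammatory transcripts, fell from 32.1 ± 3.55 to 19.7 ± 2.18 FPKM (limma adjusted p of 0.0187). The ubiquitin-conjugating enzymes Ube2d3 (162 ± 11.9 to 83.5 ± 20.7 FPKM), Ube2l3 (97.7 ± 4.99 to 77.4 ± 3.03 FPKM) and Ube2v2 (35.2 ± 1.77 to 14.2 ± 5.39 FPKM) fell too, with limma adjusted p of 0.0269, 0.0285 and 0.0297. The remaining calls were Ube2n, the partner of Ube2v2, and N4bp1, a ubiquitin reader, which lie outside the naming rule and were added after their values were seen. With the mitochondrial share as a covariate Ube2d3, Ube2v2 and Ube2n turned to log2 fold changes of 0.05, 0.08 and 0.36. Ube2n lost its call after GC correction (limma adjusted p of 0.0531), median centring (0.0545) and quantile normalization (0.0586), and the other 5 genes kept theirs after GC correction. Cyld, the other main deubiquitinase of the pathway, and the linear ubiquitin pair Rnf31 and Otulin did not pass, with limma adjusted p of 0.467, 0.405 and 0.453.

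Among 13 tested genes of the IkB kinase complex and its upstream kinases 4 were lower and 2 higher. Tab1, a partner of the kinase TAK1, rose from 14.0 ± 2.32 to 23.3 ± 1.64 FPKM (limma adjusted p of 0.0191), and Ikbkg, the regulatory subunit that binds ubiquitin chains, rose from 10.7 ± 0.629 to 15.6 ± 2.11 FPKM (0.0392). Tab3, a ubiquitin-binding partner of TAK1, fell from 6.81 ± 0.844 to 3.03 ± 1.13 FPKM (0.0342), and Ikbke, an IkB kinase relative, fell from 12.4 ± 0.458 to 8.29 ± 1.22 FPKM (0.0372). The other calls were Tab2 and Tbk1, which fell by 0.51 and 0.55 on the log2 scale and were named after their values were seen. With the mitochondrial share as a covariate they stood at 0.01 and 0.09. Tab2 lost its call after GC correction (log2 fold change -0.27, limma adjusted p of 0.0866), median centring (0.0501) and quantile normalization (0.0517), and the other 5 genes kept theirs after GC correction. Chuk, the partner of Ikbkb in the kinase, had an adjusted p of 0.0877 in limma.

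Of 21 matched receptors and ligands 10 could be tested, and 2 were lower. Tnfrsf12a, a TNF-family receptor that recruits TRAF proteins, fell from 98.2 ± 2.90 to 72.2 ± 5.27 FPKM (limma adjusted p of 0.0202), and Il1rn, the interleukin-1 receptor antagonist, fell from 36.0 ± 2.70 to 22.7 ± 3.51 FPKM (0.0285). Tnf had a mean of 0.0566 FPKM over the 7 libraries and Il1b was listed at 0 in each. Tnfrsf1a, the main TNF receptor, did not pass (limma adjusted p of 0.313).

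**Figure D4:**
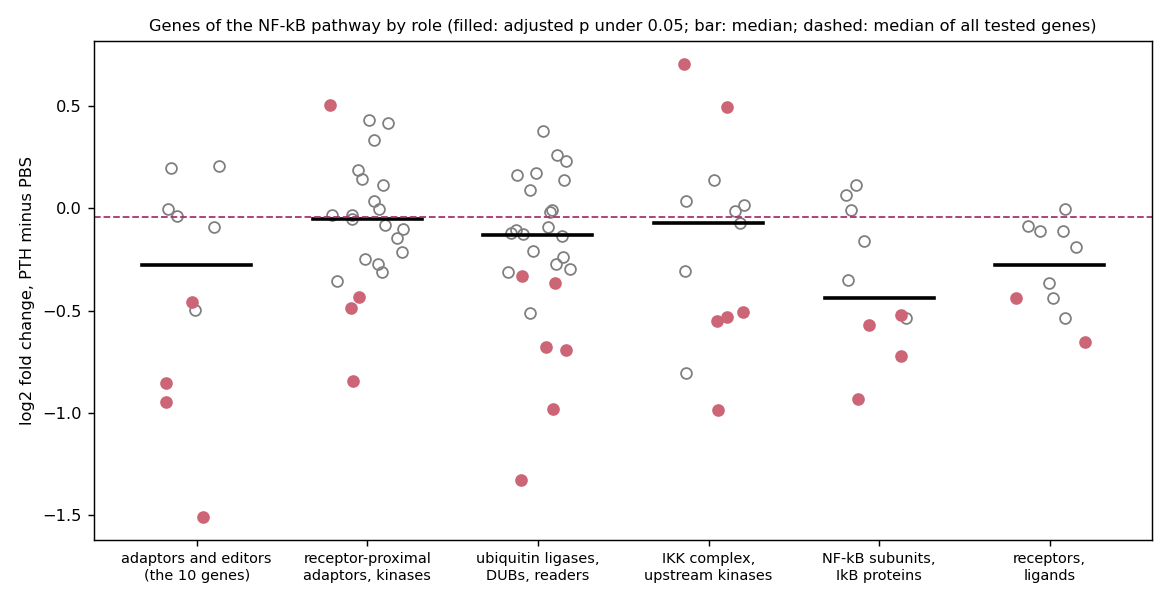
Log2 fold change (PTH minus PBS) of every tested gene of the pathway, grouped by role; filled points have a limma adjusted p under 0.05, bars are list medians and the dashed line is the median of all tested genes. The medians are -0.28 for the 10 genes, -0.28 for the receptors and ligands and -0.44 for the subunits and IkB proteins. They are -0.13, -0.07 and -0.05 for the ubiquitin, kinase complex and adaptor lists, against -0.04 over all tested genes. Rises are seen among adaptors (Nod1) and kinase complex genes (Tab1, Ikbkg).

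The genes whose pattern over the 7 libraries lay nearest to that of Tnfaip3, which had the smallest limma p of the 10, were Plk2, Dhrs9 and Osmr. The root mean square difference between centred log2(FPKM + 1) values was 0.06, 0.07 and 0.10. Plk2, a polo-like kinase, went from 105 ± 2.76 to 59.4 ± 4.17 FPKM, Dhrs9, a dehydrogenase, from 28.7 ± 1.48 to 15.5 ± 1.51 FPKM and Osmr, the oncostatin M receptor, from 23.1 ± 0.785 to 11.4 ± 0.773 FPKM. Genes were picked here for their likeness, so these values are a description.

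The libraries also differed as a whole. Summed FPKM was 519845 to 532909 with PBS and 472621 to 509859 with PTH, and 10538 to 10624 genes per library reached 1 FPKM. Mitochondrial mRNAs took 5.78 to 5.90% of summed FPKM with PBS and 0.867 to 3.61% with PTH. For this share the two-sided exact permutation p was 0.0571, the smallest that 35 assignments allow when 1 tail is doubled. With that share as a covariate 0 of the 10 genes and 1 gene in all were called. In that fit Tnfaip3 stood at -0.88 (limma adjusted p of 0.101), Ripk2 at -0.84 (0.140), Tnip3 at -0.84 (0.246) and Birc3 at -0.15 (0.772), and since the share does not overlap between the groups, it and PTH cannot be told apart in these libraries. Of 14 stellate markers 11 had a mean of at least 1 FPKM, among them Col1a1 and Vim, while Lrat and Reln were listed at 0. Acta2, Hand2 and Ngfr were near that cut, at means of 1.30, 1.03 and 1.01 FPKM, and Acta2 was 0 in PBS library 2. The stellate sum was 1094 to 1177 FPKM with PBS and 1380 to 1888 FPKM with PTH, and most of it came from Vim and Col1a1. The markers did not move as one, since Vim was called higher (limma adjusted p of 0.0259) and Dcn lower, from 3.14 ± 0.366 to 1.27 ± 0.521 FPKM (0.0385). Mean FPKM was also below that with PBS for Hand2 (1.70 and 0.529), Ngfr (1.25 and 0.826) and Lum (0.206 and 0.0298), of which Hand2 and Ngfr did not pass and Lum was not tested. Of 12 matched macrophage and leukocyte markers, cells rich in NF-kB genes, 8 were listed at 0 in all libraries, Ptprc among them, and only Cd14 reached a mean of 1 FPKM. Their sum was 15.9 to 21.8 FPKM with PBS and 13.1 to 19.2 FPKM with PTH. Of 9 hepatocyte and 8 endothelial markers 0 reached a mean of 1 FPKM, and of 7 cholangiocyte markers Spp1 and Krt19 did. The cholangiocyte sum was 344 to 354 FPKM with PBS and 284 to 323 FPKM with PTH, nearly all of it Spp1, whose groups did not overlap (342 ± 4.32 and 295 ± 17.4 FPKM, limma adjusted p of 0.0606). Its part in the results of the 10 genes was not tested. In bulk RNA, fewer cells of a type and less RNA per cell cannot be told apart.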

How the data were processed

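RNA sequencing libraries from 7 samples (3 PBS, 4 PTH) were analysed from tables in which the authors deposited FPKM values per gene and library, per the file headers. The submitters' processing notes list Bowtie 0.12.2 and mm8, a mouse build. Which program computed FPKM, with what annotation and scaling, is not given in the sources used here, and read depth is unknown. Per the file headers the deposited fold changes are log2 values. In the table of higher genes that column was handled as a score, because it holds a deposited value too large for a log2 fold change. The FDR columns are p-values adjusted by the authors, whose test is not named.

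Both tables were joined, and 1 row per symbol was kept, that with the highest mean (233 symbols repeat). Those whose mean reached 1 FPKM were tested on log2(FPKM + 1) with limma 3.58.1 in R 4.3.3, with a variance trend, two-sided and without covariates, with Benjamini-Hochberg adjustment over all 10667 genes. All 10 members passed the filter. The fit was tested on simulated data. The GC content of human counterparts came from protein-coding transcripts of GENCODE 29 (88.4% of tested genes) and was removed per library by loess with a span of 0.5. Other settings were a pseudocount of 0.1, other filters, quantile normalization, median centring, no variance trend, sample weights, the mitochondrial share as a covariate, a replicate block, summed rows and leaving out each library. The members and the gene lists were chosen with earlier results of these data known. Besides the members, the rule for naming genes took up to 4 called genes per list with the smallest p and the 3 genes nearest in pattern to the member with the smallest p. Birc2, Nod2, Rela, Ripk1, Traf3, Myd88, Tradd, Tirap, Ube2n, N4bp1, Cyld, Rnf31, Otulin, Tab2, Tbk1, Chuk, Tnf, Il1b and Tnfrsf1a were named after their values were seen. Between libraries of a group the median absolute log2 difference over genes was 0.0909 to 0.275, and pairs of libraries shared exactly equal values in 14 to 33 of the tested genes.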

Additional observations from a re-analysis of the deposited data

How the results depend on the processing

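Calls of the 10 genes moved between 2 and 5 lower, and stayed at 0 higher, as each library was left out. Those of all genes moved between 3 and 825 higher and 25 and 1926 lower, and those of the other pathway genes between 0 and 7 higher and 1 and 28 lower. Tnfaip3 and Ripk2 were called in each of these 7 fits and Tnip3 in 6. Over all genes the 368 higher and 849 lower calls became 211 higher and 551 lower without a filter, 181 and 439 without the variance trend, 586 and 558 after median centring, 557 and 521 after GC correction, and 663 and 573 after quantile normalization. With sample weights, an estimate that stopped before it converged, they were 3110 and 4317, with 1 of the 10 genes higher (Tnip2) and 12 and 45 of the other pathway genes. With the mitochondrial share as a covariate they were 0 and 1, with 0 of the 10 genes lower and 0 and 0 of the other pathway genes.

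With a replicate block over libraries numbered 1 to 3, calls were 2 higher and 17 lower, 1 of the 10 genes (Ripk2, limma adjusted p of 0.0417) and 0 and 0 of the other pathway genes. Tnfaip3 and Tnip3 missed the threshold there, each with an adjusted p of 0.0560. Same-numbered deviations correlated at -0.0067, -1e-04 and -0.0385 across genes, which cannot settle whether the numbers pair the libraries.

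Differences near 0 changed sign. Tnip1 turned to 0.026 after quantile normalization, 0.035 after median centring and 0.063 with weights, and Ikbkb to 0.069, 0.069 and 0.018, to 0.013 after GC correction and to 0.035 with the block. Leaving out a library took Tnip1 to between -0.080 and 0.023 and Ikbkb to between -0.070 and 0.057. Under the mitochondrial covariate Tnip2 stood at -0.077, Traf2 at -0.12 and Traf6 at 0.39, and the called genes Ube2d3 and Ube2v2 at 0.050 and 0.081. Traf6 was 0.038 with weights and 0.10 after GC correction. Birc3 also lost its call without a filter, after quantile normalization (limma adjusted p of 0.0507) and after median centring (0.0533). Tnip3 and Traf1 have means under 5 FPKM and drop out at that minimum. The cause of these changes was not tested.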
